A study of Mus musculus with 8 samples.

Results

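The steroid receptor genes described here were *Pgr*, *Esr1*, *Esr2*, *Nr3c1* and *Nr3c2*, 5 genes chosen by name out of 21911 protein-coding genes. They encode the receptors for progesterone (PR), for estrogen (ERα and ERβ), for glucocorticoids and for mineralocorticoids. Peaks were collected within 2000 bp of any GENCODE TSS of each gene, in its body and up to 100 kb upstream, a stretch called its territory below. PBRM1, the BAF180 subunit of the PBAF form of the SWI/SNF chromatin remodeler, and BRG1, the ATPase encoded by *Smarca4*, were mapped by ChIC-Seq, in which an antibody tethers micrococcal nuclease to chromatin and the fragments it releases are sequenced. Each antibody was used on 3 replicates of stromal cells taken from the uteri of WT mice aged 8 to 12 weeks, labelled day 4 of pregnancy in the sample records and D4 pseudopregnant in the protocol, with 50000 cells fixed for 5 minutes per library. No group carried a deletion or a hormone treatment, the cells came from digested uterine horns of several mice and were plated for some hours before the assay, and IgG, with 2 libraries, was not analysed here. The study calls its replicates biological, and the labels do not say how mice or cultures were divided among them, so p-values below measure the spread between these samples.

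Steroid receptors are nuclear receptors that bind a hormone, move onto DNA and change transcription. In the uterus, E2 acting through ERα drives proliferation and induces PR, and P4 acting through stromal PR restrains that response and prepares the stroma for the embryo. Glucocorticoid and mineralocorticoid receptors share much of their DNA-binding preference with PR.

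The PBRM1 lists held 21912 to 26363 peaks per replicate from 8868777 to 16505239 fragments, and the BRG1 lists held 36656 to 40610 peaks from 11506964 to 14595089 fragments. PBRM1 replicate 3 had the most fragments and the fewest peaks. Fold enrichment is the pileup of fragments at a summit over the local background of the same library, as MACS wrote it with no control file, so it cannot be set side by side between libraries, and where libraries are compared a percentile within the list is given. A percentile depends on how many weak peaks a list holds, and the BRG1 lists were longer, so the place counted from the top of the list is given beside it, a comparison added after seeing the data. A place depends on list length as well, since an equal percentile lies further from the top in a longer list. As a check of the cell type, every BRG1 replicate had a promoter peak at 8 of 8 stromal genes and every PBRM1 replicate at 5 of 8. For epithelial genes these counts were 4 of 8 and 1 of 8, although the deeper pooled lists had a peak at 8 of 8 of them, for endothelial and for smooth muscle genes 2 of 3 and 1 of 3, and for immune genes 0 of 4 in both, also in the pooled lists. Of all protein-coding genes, 61.4% had a promoter peak in every BRG1 replicate and 52.1% in every PBRM1 replicate. With so few genes per list, counts near these shares say little about cell type. A peak at a promoter is not a measure of expression.

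All 5 receptor genes had a promoter peak in both pooled lists, where 68.6% of protein-coding genes had one for PBRM1 and 72.1% for BRG1. A promoter peak in every PBRM1 replicate was found at 4 of 5 genes, all but *Esr1*, against 52.1% of protein-coding genes. A promoter peak in every BRG1 replicate was found at 4 of 5 genes, all but *Esr2*, against 61.4%. *Pgr*, *Nr3c1* and *Nr3c2* had one in all 6 replicates, 3 of 5 genes against 51.8%. With 5 genes these counts lay near the background. Without PBRM1 replicate 3, *Esr1* also had a PBRM1 peak in both remaining replicates. Once only peaks reaching a −log10 q of 5 were counted, the PBRM1 count fell to 2 of 5, *Pgr* and *Nr3c1*, and with peaks within 500 bp of a TSS it was 3 of 5, without *Nr3c2*.

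The mean levels at most of these promoters were low among genes that had a promoter peak. Over the 11425 genes with a promoter peak in every PBRM1 replicate, the median of the strongest promoter peak, averaged over replicates, was 7.01-fold, and the 4 receptor genes lay between 4.24-fold for *Nr3c2* and 5.49-fold for *Esr2*, at the 2.48 to 19.0 percentile of those genes. Over the 13450 such genes of BRG1 the median was 8.42-fold. *Esr1*, *Pgr* and *Nr3c1* lay at the 2.58, 6.67 and 12.0 percentile, and *Nr3c2*, at 8.21-fold, lay at the 47.2 percentile. These percentiles use means over libraries. Within single PBRM1 libraries *Esr2* ranged from the 10.1 to the 53.4 percentile of genes with a promoter peak and *Pgr* from the 6.11 to the 33.5. In order, the PBRM1 levels were 5.49 ± 0.586 for *Esr2*, 5.22 ± 0.991 for *Nr3c1*, 5.01 ± 0.527 for *Pgr* and 4.24 ± 0.506 for *Nr3c2* (fold enrichment, SD, n = 3), and the replicates of each pair of neighbours overlapped. The BRG1 levels were 8.21 ± 0.190 for *Nr3c2*, 5.53 ± 0.444 for *Nr3c1*, 4.98 ± 0.191 for *Pgr* and 4.40 ± 0.536 for *Esr1* (SD, n = 3). Only *Nr3c2* and *Nr3c1* were separate in all replicates, and the other neighbours overlapped.

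**Figure D1:**
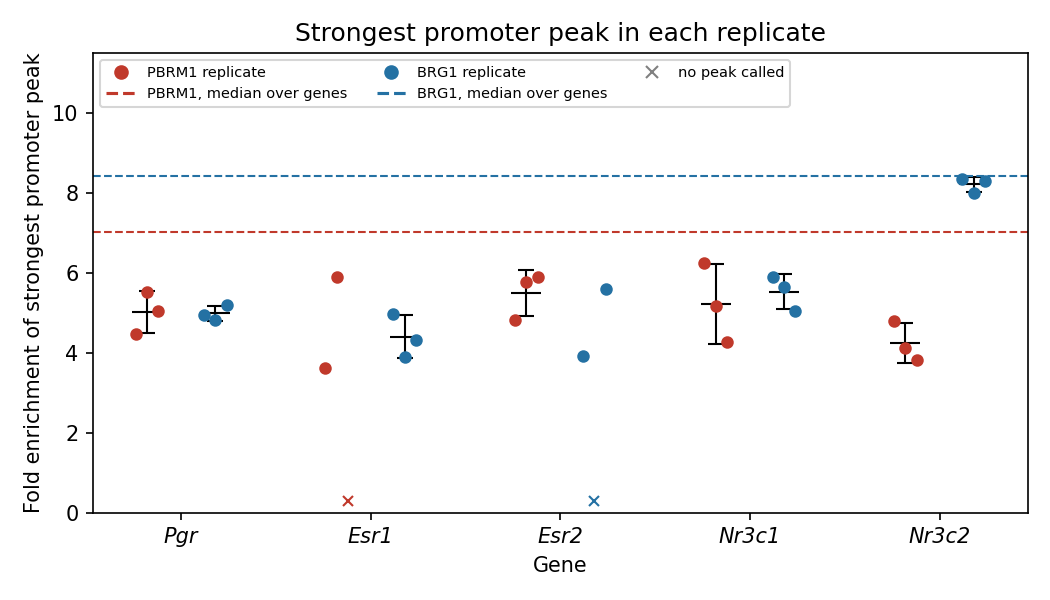
Fold enrichment of the strongest peak within 2000 bp of a TSS, by gene (x axis), for each PBRM1 (red) and BRG1 (blue) replicate. Bars give mean ± SD where all 3 replicates had a peak, crosses near 0 mark a replicate with no peak, and dashed lines give the median of genes with a peak in every replicate of that antibody, 7.01 and 8.42; only the BRG1 points of *Nr3c2* come near their line.

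*Pgr* encodes PR, through which P4 acts in uterine stroma. It lies on chr9:8899833-8968611, plus strand (mm10), with 3 TSSs that form 1 promoter. All of its peaks, in all 8 lists, lay in 1 stretch of 2090 bp over that promoter and the first exon, chr9:8900094-8902183, and none lay elsewhere in the 168.779 kb territory, which holds no other gene. Its territory was sparse, with 1.18 pooled PBRM1 peaks and 0.592 pooled BRG1 peaks per 100 kb, at the 25.4 and 15.5 percentile of protein-coding genes.

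The strongest *Pgr* peak had a fold enrichment of 4.47, 5.52 and 5.05 in PBRM1 replicates 1, 2 and 3 and of 4.94, 4.82 and 5.19 in BRG1 replicates 1, 2 and 3. The antibodies overlapped. Within their lists these peaks stood at a percentile of 45.8 ± 19.8 in PBRM1 and 44.8 ± 4.08 in BRG1 (SD, n = 3), a difference, PBRM1 minus BRG1, of 1.03 (two-sided exact permutation test over replicates, p = 1, adjusted p = 1 over 3 genes). Its sign turned without PBRM1 replicate 2, −4.52, PBRM1 replicate 3, −4.84, or BRG1 replicate 2, −1.07. Counted from the top of the list, *Pgr* stood at place 17696, 11356 and 9301 in PBRM1 and 22313, 21778 and 19276 in BRG1, nearer the top in every PBRM1 replicate (exact permutation p = 0.1), so whether the antibodies overlap depended on the scale. An equal percentile gives a later place in the longer BRG1 lists, so no direction is drawn for *Pgr*. The stretch held more than 1 summit. Each BRG1 replicate split it into 3 peaks, with the last summit 2134, 2118 and 2135 bp downstream of the first TSS, inside the coding part of the first exon. PBRM1 replicates 1 and 2 also had a peak there, with summits at 2174 and 2104 bp, whereas replicate 3 had 1 peak, with its summit at 761 bp. The pooled BRG1 list placed its summit at 2134 bp and the pooled PBRM1 list at 831 bp, with a second peak at 2153 bp. The sequence around the BRG1 summit is shown because both antibodies had a peak on it, and its capitals mark a GC box, GGGCGG read on the other strand.
*Pgr* first exon, chr9:8901867-8902066: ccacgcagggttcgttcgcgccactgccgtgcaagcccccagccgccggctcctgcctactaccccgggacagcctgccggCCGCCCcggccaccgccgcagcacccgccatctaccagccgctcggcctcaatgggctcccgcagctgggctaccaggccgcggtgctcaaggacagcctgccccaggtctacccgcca

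The window analysed around this summit was 70.8% G and C, with a ratio of observed to expected CpG of 0.750, against medians of 53.5% and 0.342 over all pooled BRG1 windows. Those medians are not limited to promoters. The strongest pooled BRG1 promoter windows of the other receptor genes were 56.8 to 66.4% G and C, with ratios of 0.469 to 0.701. It held 2 matches to the GC box, which 26.4% of all 137678 pooled windows hold. It had no match to AGAACA, the core of PR and glucocorticoid receptor elements, which 19.6% of windows hold, or to AGGTCA, the core of estrogen receptor elements, which 19.0% hold.

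**Figure D2:**
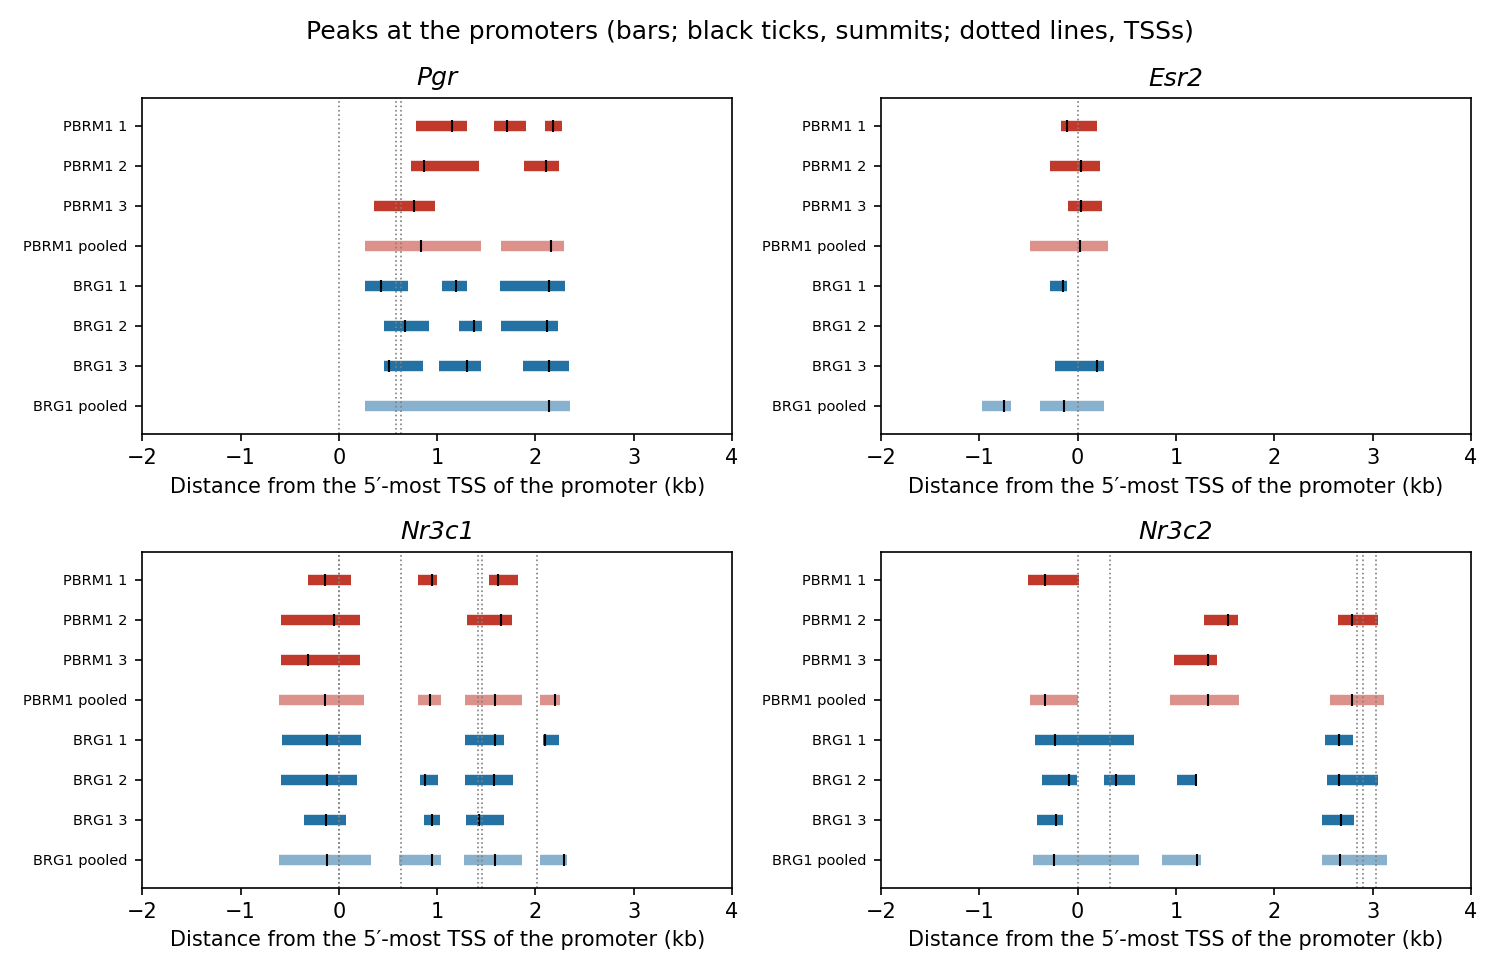
Peaks (bars) of the 3 replicates and the pooled list of PBRM1 (red) and BRG1 (blue) at *Pgr*, *Esr2*, *Nr3c1* and *Nr3c2*, by distance in kb from the 5′-most TSS of the promoter; black ticks are summits and dotted lines are TSSs. At *Nr3c2* the BRG1 replicates share a summit just before the second group of TSSs, and no PBRM1 peak is shared by all 3 replicates.

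*Esr1* encodes ERα, the main uterine estrogen receptor. It lies on chr10:4611593-5005614, plus strand, with 9 TSSs that form 5 promoters, and its territory of 494.022 kb also takes in *Gm3266* and part of *Ccdc170*. It had 3, 5 and 4 peaks in the PBRM1 replicates and 11, 12 and 9 in the BRG1 replicates, the most of the 5 genes in each replicate except PBRM1 replicate 1, where *Pgr*, *Esr2* and *Nr3c1* also had 3, and every BRG1 replicate lay above every PBRM1 replicate. The means were 4 ± 1 and 10.7 ± 1.53 (SD, n = 3), a difference of −6.67 (exact two-sided permutation p = 0.1, which is the lowest value 3 against 3 can give, adjusted p = 0.167 over 5 genes). Per 10000 peaks of the list the means were 1.68 ± 0.323 and 2.79 ± 0.446 (exact permutation p = 0.1, adjusted p = 0.5). The pooled lists had 23 and 26 peaks here, a density at the 62.1 and 51.1 percentile of protein-coding genes.

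Promoter peaks of *Esr1* were weak and scattered. At the first promoter, from which 2 coding transcripts start, no PBRM1 replicate had a peak, and BRG1 replicates 1 and 3 had peaks of 4.96-fold and 3.89-fold. At the second promoter, 2 coding transcripts at 4710155, peaks of 3.33-fold and 5.88-fold were called in PBRM1 replicates 1 and 2 and of 4.06-fold and 4.33-fold in BRG1 replicates 1 and 3. No *Esr1* promoter had a peak in all replicates of either antibody, and BRG1 replicate 2 counted only through a peak of 3.90-fold at 4712651, a start of a noncoding transcript. With the basic transcript set, which drops that start, *Esr1* no longer had a BRG1 promoter peak in every replicate. The remaining promoters, at 4922970 and 4936526, had no peak in any list.

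The strongest *Esr1* peak was in an intron, 9507 bp downstream of the first TSS, at chr10:4620845-4621264; it was singled out after its values were seen. The pooled BRG1 fold enrichment was 11.3, at the 94.9 percentile of its list, and that of pooled PBRM1 was 6.09, at the 80.6 percentile. BRG1 replicates 1 and 3 had 8.24-fold and 12.5-fold, and BRG1 replicate 2 and every PBRM1 replicate had no peak. The fragments behind it can be counted, because pooled and replicate pileups add up: at all 206 pooled summits that all replicates of an antibody share to the base, the pooled pileup equalled the sum of the replicates. At base 4621100 the pooled BRG1 pileup was 100, and replicates 1 and 3 had 34 and 44, which leaves 22 fragments in replicate 2. A missing call was therefore not a missing signal there. Peaks of the replicates were narrow, 182 and 271 bp, and the shortest peak in the list of replicate 2 was 152 bp, the fragment length of that library. Whether the width kept the site from being called was not tested. Of 18154 pooled BRG1 peaks whose −log10 q reached 20, 10.0% were missing from at least 1 replicate list.

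Of 38 sites in the *Esr1* territory, 2 had a peak in every BRG1 replicate, both outside promoters, and 0 in every PBRM1 replicate. The site at −57677 bp from the first TSS, chr10:4553133-4554324, inside *Ccdc170*, had 5.30-fold, 4.86-fold and 6.11-fold in BRG1 and 4.13-fold and 4.40-fold in PBRM1 replicates 2 and 3. The intron site 20639 bp downstream, chr10:4632015-4632860, had 4.40-fold, 3.97-fold and 4.99-fold in BRG1 and 3.84-fold and 4.24-fold in the same PBRM1 replicates. PBRM1 replicate 1 had neither. At the first site the BRG1 mean was 5.43 ± 0.634 and at the second 4.45 ± 0.514 (SD, n = 3).

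The intron sequence is shown for its BRG1 signal and the second promoter for its PBRM1 signal. Capitals mark, in the first, the AP-1 motif TGANTCA, the letters TATAAA read on the other strand, a GC box and a CCAAT box. In the second they mark the TEAD motif GGAATG.
*Esr1* intron, chr10:4621000-4621199: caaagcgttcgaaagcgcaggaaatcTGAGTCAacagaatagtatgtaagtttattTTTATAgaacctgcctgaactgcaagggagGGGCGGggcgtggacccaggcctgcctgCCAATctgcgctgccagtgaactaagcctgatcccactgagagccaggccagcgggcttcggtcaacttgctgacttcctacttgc
*Esr1* second promoter, chr10:4709944-4710143: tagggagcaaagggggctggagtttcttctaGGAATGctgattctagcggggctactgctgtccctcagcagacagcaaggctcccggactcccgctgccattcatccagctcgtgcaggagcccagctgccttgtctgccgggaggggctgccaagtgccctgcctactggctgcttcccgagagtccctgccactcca

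Of all pooled windows, 11.6% hold the AP-1 motif, 8.95% TATAAA, 26.4% the GC box, 28.6% CCAAT and 15.2% GGAATG. A match is a description of the letters only.

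**Figure D3:**
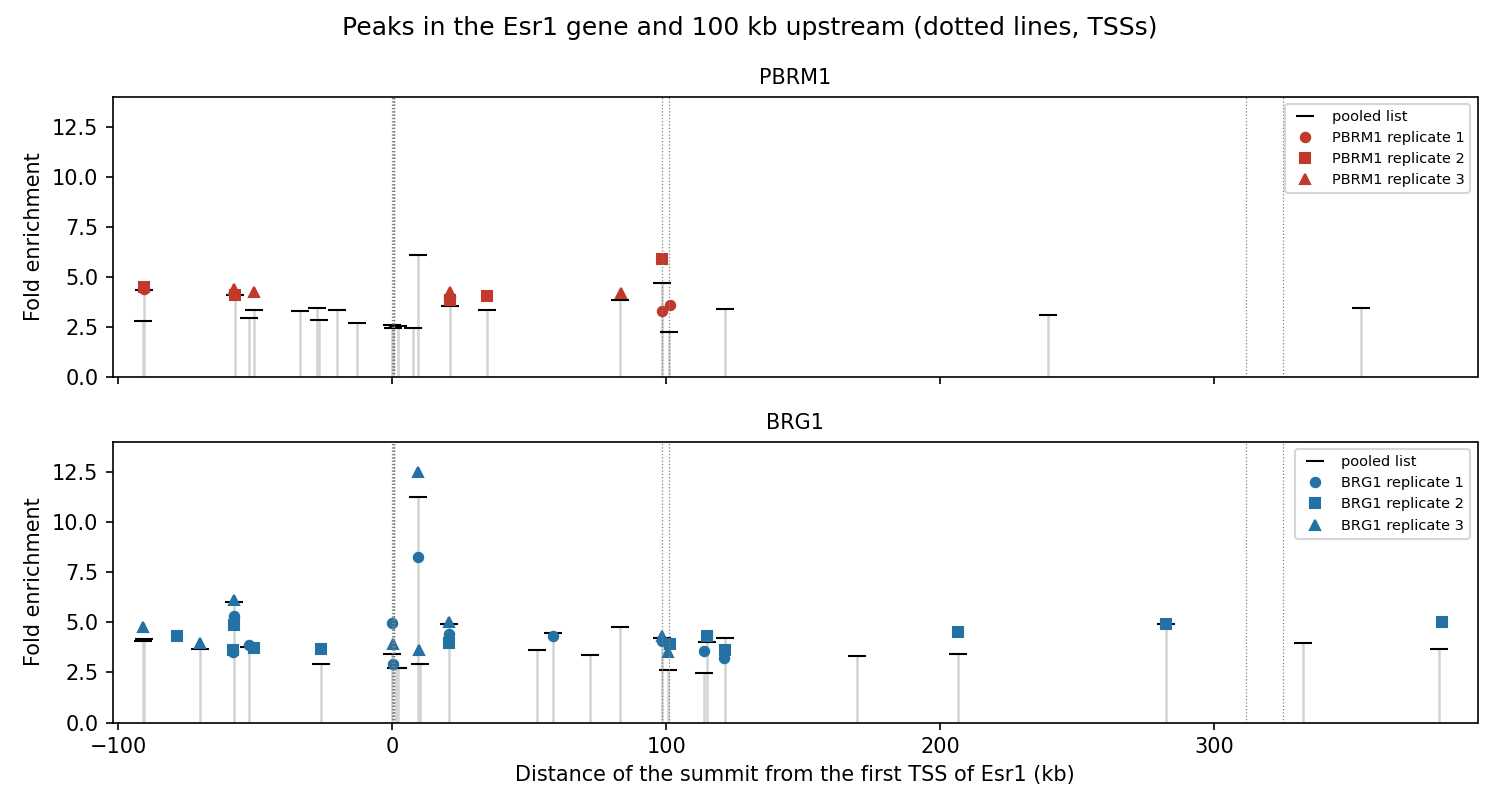
Fold enrichment of each peak (y axis) against the distance of its summit from the first *Esr1* TSS in kb (x axis), for PBRM1 and BRG1; markers are replicates, black bars the pooled list and dotted lines TSSs. The tallest BRG1 points, 8.24 and 12.5, stand together 9507 bp inside the gene.

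*Esr2* encodes ERβ, the second estrogen receptor. It lies on chr12:76120419-76177259, minus strand, with promoters at 76177259 and 76167715, and only the first had peaks. There the PBRM1 replicates had 4.82-fold, 5.77-fold and 5.89-fold, BRG1 replicates 1 and 3 had 3.92-fold and 5.59-fold, and BRG1 replicate 2 had no peak. *Esr2* was the only one of the 5 genes with a promoter peak in every PBRM1 replicate and not in every BRG1 replicate, and without BRG1 replicate 2 it had one in the remaining BRG1 replicates. Of all 21911 protein-coding genes, 11425 had one in every PBRM1 replicate, and 11359 of these had one in all 6 replicates. The pooled peaks were 6.70-fold for PBRM1 and 5.82-fold for BRG1.

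Within the pooled lists these peaks stood at the 84.5 and 73.7 percentile.

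The strongest *Esr2* peaks of BRG1 lay away from its promoter. At the upstream site, chr12:76195971-76197346, at −18935 bp from the first TSS, BRG1 had 8.21-fold, 9.24-fold and 7.27-fold, a mean of 8.24 ± 0.989 (SD, n = 3), and PBRM1 had a peak in replicate 2 alone, 6.66-fold. The pooled peaks there stood at the 83.7 percentile for PBRM1 and 92.1 for BRG1. An intron site, chr12:76152343-76152840, named after its values were seen, had 6.45-fold, 7.12-fold and 5.63-fold in BRG1 and 5.73-fold in PBRM1 replicate 1 alone. It overlaps the processed pseudogene *Gm7862*, a copy whose reads may be split with its parent gene, so its level is uncertain. Peak counts in the territory were 3, 3 and 2 for PBRM1 and 5, 4 and 4 for BRG1 (exact permutation p = 0.1, adjusted p = 0.167), and per 10000 peaks of the list they were 1.12 ± 0.197 and 1.13 ± 0.0897 (SD, n = 3, exact permutation p = 1). Each count includes a peak at the promoter of *Mthfd1* and *Gm47525*, found in all 6 replicates.

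The promoter and the upstream site of *Esr2* are shown on the strand of the gene, each around its pooled BRG1 summit. The promoter stretch leaves out the summits of PBRM1 replicates 2 and 3, of the pooled PBRM1 list and of BRG1 replicate 3. Capitals mark CCAAT and GGAATG, each on the other strand, in the promoter, and CCAAT and 2 GC boxes in the upstream site.
*Esr2* promoter, chr12:76177295-76177494: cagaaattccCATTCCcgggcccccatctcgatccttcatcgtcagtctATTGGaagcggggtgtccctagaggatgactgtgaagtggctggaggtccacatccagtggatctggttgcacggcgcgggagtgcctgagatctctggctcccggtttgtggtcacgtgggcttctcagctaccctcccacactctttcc
*Esr2* upstream site, chr12:76196094-76196293: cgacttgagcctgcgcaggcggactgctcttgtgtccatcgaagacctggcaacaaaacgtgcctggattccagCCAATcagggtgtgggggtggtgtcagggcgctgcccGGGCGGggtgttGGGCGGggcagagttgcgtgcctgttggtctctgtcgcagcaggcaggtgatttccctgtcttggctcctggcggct

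*Nr3c2* encodes the mineralocorticoid receptor, which binds aldosterone and also glucocorticoids. It lies on chr8:76899442-77245012, plus strand, with 7 TSSs that form 4 promoters, and shares its first promoter with the noncoding *Gm10649* on the other strand. Both antibodies had a promoter peak in every replicate, but the strongest was not always at the same place. In BRG1 the strongest peak lay at the second promoter in each replicate, chr8:76901924-76902585, with 8.34-fold, 7.99-fold and 8.30-fold. This site also lay within 2000 bp of a TSS of *Gm10649*. In PBRM1 that site had a peak in replicate 2 alone, 4.12-fold, and replicate 1 had 4.80-fold at the first promoter. Replicate 3 had 3.81-fold between them, 1328 bp from the first TSS, where replicate 2 also had 3.48-fold. The pooled PBRM1 list had peaks at both promoters, 3.89-fold at the first and 3.71-fold at the second, inside the BRG1 site. By percentile of the list, the strongest peak of each BRG1 replicate, 78.9 to 82.4, lay above that of each PBRM1 replicate, 18.9 to 31.2.

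Within its list the strongest *Nr3c2* peak stood at the percentile 24.4 ± 6.22 in PBRM1 and 80.6 ± 1.75 in BRG1 (SD, n = 3), a difference, PBRM1 minus BRG1, of −56.1 (exact permutation p = 0.1, adjusted p = 0.3 over 3 genes). Its places from the top, 15815, 20233 and 17774 in PBRM1 and 7157, 7741 and 7341 in BRG1, had the same order (exact permutation p = 0.1). The first promoter had 4.94-fold, 4.14-fold and 4.39-fold in BRG1, a mean of 4.49 ± 0.413 against 8.21 ± 0.190 at the second (SD, n = 3), and the summits lay a median of 2895 bp apart. The second was higher in 3 of 3 replicates, by 0.88 ± 0.11 on the log2 scale (two-sided exact sign-flip permutation test, p = 0.25, the smallest that 3 replicates allow). The second promoter is shown because the strongest BRG1 peak of every replicate lay there. Capitals mark CCAAT, present 2 times, and a GC box.
*Nr3c2* second promoter, chr8:76902016-76902215: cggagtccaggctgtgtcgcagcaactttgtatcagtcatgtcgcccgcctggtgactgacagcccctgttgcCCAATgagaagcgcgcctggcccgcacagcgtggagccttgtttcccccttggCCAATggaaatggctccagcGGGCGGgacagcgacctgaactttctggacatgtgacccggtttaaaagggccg

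Peaks elsewhere in the *Nr3c2* territory were few and not repeated between replicates: none of its 10 sites outside promoters had a peak in more than 1 replicate. The strongest of them in the pooled BRG1 list, chr8:77170269-77170470, had 7.45-fold, at the 84.3 percentile, and was in no replicate list. The next, chr8:77132867-77133152, had 6.27-fold there and a peak in BRG1 replicate 2 alone. Peak counts were 2, 2 and 1 for PBRM1 and 4, 6 and 3 for BRG1 (exact permutation p = 0.1, adjusted p = 0.167). Per 10000 peaks of the list the means were 0.695 ± 0.214 and 1.14 ± 0.440, and the replicates overlapped (SD, n = 3, exact permutation p = 0.2, adjusted p = 0.5). The pooled density, 1.80 per 100 kb for each antibody, was at the 31.2 and 25.2 percentile of protein-coding genes.

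*Nr3c1* encodes the glucocorticoid receptor, which is present in nearly all cell types. It lies on chr18:39410545-39519421, minus strand, with 9 TSSs that form 3 promoters and no other gene in its territory. Its strongest peak covered the start of the main promoter, chr18:39490977-39491908, with 6.24-fold, 5.16-fold and 4.26-fold in PBRM1 and 5.90-fold, 5.64-fold and 5.04-fold in BRG1. The percentiles, 47.1 ± 11.3 and 54.1 ± 8.57 (SD, n = 3), overlapped and differed by −6.97 (exact permutation p = 0.6, adjusted p = 0.9). The places from the top of the list, 9963, 13132 and 14335 in PBRM1 and 15608, 16131 and 20772 in BRG1, did not overlap and had the opposite order (exact permutation p = 0.1), so no direction is drawn for *Nr3c1*. A neighbouring site, chr18:39489441-39490028, had 4.41-fold, 4.55-fold and 4.54-fold in BRG1 and 3.30-fold and 3.32-fold in PBRM1 replicates 1 and 2. The distant first promoter, at 39519421, had a peak in BRG1 replicate 2 alone, 3.80-fold. Upstream of the gene 3 sites were in the pooled BRG1 list and 0 in the pooled PBRM1 list, although PBRM1 replicate 2 had a peak of 4.11-fold at 1 of them, and territory counts were 3, 3 and 1 for PBRM1 and 3, 5 and 5 for BRG1 (exact permutation p = 0.3, adjusted p = 0.375).

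Summed over the 5 territories, the PBRM1 replicates had 14, 15 and 9 peaks and the BRG1 replicates 26, 30 and 24, a difference, PBRM1 minus BRG1, of −14 (two-sided exact permutation test, p = 0.1). The BRG1 lists were longer, and per 10000 peaks of a list the values were 6.09, 5.69 and 4.11 for PBRM1 and 6.40, 8.18 and 6.38 for BRG1, a difference of −1.69 (exact permutation p = 0.1). The groups did not overlap on either scale, but per 10000 peaks they overlapped with 50 kb or 20 kb upstream (exact permutation p = 0.2 for each) or with peaks limited to a −log10 q of 5 or more (p = 0.3). For *Pgr* alone the values overlapped, with means of 0.840 ± 0.431 and 0.785 ± 0.0414 (SD, n = 3, exact permutation p = 0.9). Of the 46 pooled PBRM1 peaks in the territories, 30 shared 1 bp or more with a peak of the pooled BRG1 list, 65.2% (95% Wilson interval 50.8 to 77.3), against 78.6% over the whole list. With both lists limited to peaks reaching a −log10 q of 5, the shares were 87.0% (20 of 23) and 87.7%. With both limited to peaks found in every replicate of their antibody, they were 75% (3 of 4) and 96.1%. The PBRM1 peak not shared then, at the *Esr2* promoter, did overlap a pooled BRG1 peak, which BRG1 replicate 2 lacked. The comparison thus depended on which peaks of both lists were kept. Intervals cover counting error only. The share was 2 of 2 at *Pgr* and 13 of 23 at *Esr1*.

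**Figure D4:**
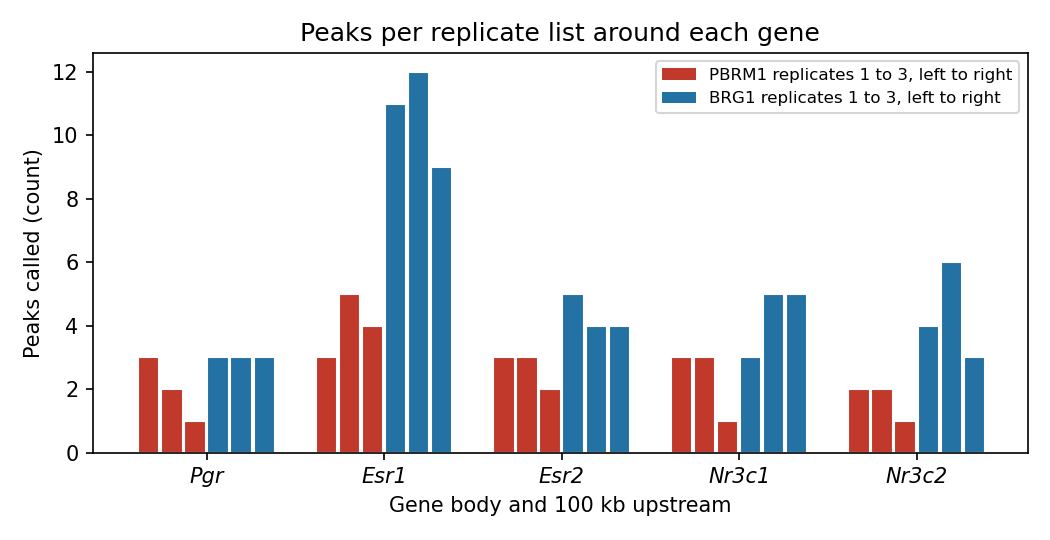
Number of peaks (y axis) in the gene body and 100 kb upstream of each gene (x axis), with 1 bar for each PBRM1 (red) and BRG1 (blue) replicate. *Esr1* has 9 to 12 peaks in BRG1 and 3 to 5 in PBRM1, and the bars of *Pgr* touch the same height in both.

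Of 71 sites formed by joining the peaks of all 8 lists in the territories, 3 had a peak in all 6 replicates, those at the *Pgr* and *Nr3c1* promoters and at the promoter of *Mthfd1*, and 26 were found in the pooled lists alone. Of 15 promoters of the 5 genes, 9 had a peak in a pooled list and 6 had none in any list.

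Of all protein-coding genes, 52.1% had a promoter peak in every PBRM1 replicate and 61.4% in every BRG1 replicate. Of 44 other nuclear receptor genes, 25 had one in every PBRM1 replicate and 34 in every BRG1 replicate. Their median levels were 6.31-fold and 7.22-fold, and 20 of 25 lay above each of *Pgr*, *Esr2* and *Nr3c1* in PBRM1. In BRG1, 30 of 34 lay above *Pgr* and 8 of 34 above *Nr3c2*. By distance of log2 fold enrichment over the 6 replicates, with 0 on the log2 scale where no peak was called, *Pgr* was nearest to *Nr4a3* (0.702) and *Nr1h2* (0.750), *Nr3c1* to *Nr4a3* (0.450) and *Vdr* (0.517), *Nr3c2* to *Rxra* (0.563) and *Rorb* (0.612), *Esr1* to *Nr2f6* (0.705) and *Thra* (0.752), and *Esr2* to *Nr1h2* (2.39) and *Nr5a2* (2.46). A replicate with no peak weighs heavily in such a distance, as for *Esr1* in PBRM1 replicate 3 and *Esr2* in BRG1 replicate 2.

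Against the same 52.1% and 61.4% of protein-coding genes, 22 genes that respond to these hormones were counted. Of these, 16 had a promoter peak in every PBRM1 replicate and 19 in every BRG1 replicate. Those with the highest mean percentile were *Fkbp5*, a chaperone of steroid receptors, at 9.23 ± 1.76-fold in PBRM1 and 13.6 ± 0.947-fold in BRG1, *Klf9*, a transcription factor, at 8.25 ± 1.08 and 8.85 ± 0.418, and *Dusp1*, a phosphatase of MAP kinases, at 8.42 ± 1.64 and 8.33 ± 0.750 (SD, n = 3).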

How the data were processed

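ChIC-Seq of PBRM1 and BRG1 in D4 uterine stromal cells was used as 6 replicate and 2 pooled peak lists. Per the methods and the submitters' notes, the authors trimmed read pairs with cutadapt, aligned them to mm10 (GRCm38) with Bowtie2, removed those with a mapping quality under 20 and duplicates, and called peaks with MACS 2.2.7.1. Per the file headers, no control file was given and the q-value cutoff was 0.05, with a local background of 10000 bp. Each deposited list holds a pileup signal, a fold enrichment ratio and −log10 p- and q-values, of which the p-values were not used. A peak against the local background alone can mark open chromatin that any antibody would collect.

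The pooled lists rest on 38144108 fragments for PBRM1 and 37842839 for BRG1 and held 55119 and 82669 peaks. All 323595 peaks on the numbered, X and Y chromosomes lay within the GRCm38 chromosome lengths. GENCODE M21 gave TSSs, and those within 1000 bp of each other were taken as 1 promoter. A promoter peak lay within 2000 bp of a TSS. Sites are peaks of all lists joined where they overlap by 1 bp. Motifs were counted on both strands of windows centred on pooled summits, as exact strings except for inverted repeats, where 1 mismatch was allowed. None of the named windows held AGAACA or its inverted repeat. AGGTCA had 1 match, in the window of the strongest pooled PBRM1 promoter peak of *Nr3c2*, and 19.0% of all windows hold it. Sequences were read from the RefSeq copy of GRCm38.p6, outside UTRs, and none is given for *Nr3c1*. The code ran under Python 3.11.15 with scipy 1.17.1, pandas 2.3.3, numpy 2.4.6 and, for plots, matplotlib 3.10.9. On simulated intervals the overlap step was tested and found 6000 of 6000 planted overlaps.

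Named were the 5 genes, their strongest promoter peaks and the 2 strongest other peaks with a peak in every replicate of 1 antibody, the 2 nearest receptors and 3 response genes. Members and lists were chosen with earlier results of these data known. Alternatives were a stricter q-value, other distances, transcripts and overlaps, replicates left out, a replicate block and, added after seeing the data, the place from the top of the list.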

Additional observations from a re-analysis of the deposited data

How the results depend on the processing

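With a −log10 q of at least 5, the number of genes with a promoter peak in every PBRM1 replicate was 2 and the difference in territory peaks was −6.67. With both pooled lists held to that limit, 87.0% of the pooled PBRM1 peaks were shared. Asking for 50% of both peaks gave 45.7% shared, against 62.0% over the whole list by the same rule. Keeping only pooled PBRM1 peaks called in both other replicates when 1 was left out kept 4 to 8 peaks, all shared (100 to 100%), against 99.6 to 99.8% over the whole list. Here the pooled BRG1 list was not limited. The percentile difference of *Pgr* changed sign with ranks by q-value, −1.97, and ranged from −4.84 to 12.4 with 1 replicate left out, negative without PBRM1 replicate 2 or 3 or BRG1 replicate 2. That of *Nr3c2* was −48.4 with ranks by q-value. Counted in places from the top of the list, that of *Nr3c1* changed sign, with PBRM1 nearer the top by 5027 places. The *Pgr* BRG1 level was 4.74 within 500 bp. The causes were not tested. Of 109 alternatives, 5 changed sign and 9 were classed as moved. The other 95 kept the sign, but not always the size. The percentile difference of *Nr3c1*, −6.97 as reported, was −0.689 without PBRM1 replicate 3 and −11.7 without PBRM1 replicate 1. Places from the top are on another scale than percentiles, so only their sign can be compared.

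Replicate numbers are shared between the antibodies, but promoter peaks of same-numbered replicates did not deviate together over 11359 genes (r of −0.022, −0.0020 and 0.0042). Such values cannot tell whether same-numbered libraries came from the same mice or culture, which the labels do not give. With the replicate block, the differences were −14 for territory peaks (exact sign-flip p = 0.25), −1.69 per 10000 peaks (p = 0.25), and in percentile 1.03 for *Pgr* (p = 1), −6.97 for *Nr3c1* (p = 0.25) and −56.1 for *Nr3c2* (p = 0.25), where 0.25 is the smallest possible. No test here could pass 0.05, so a p says nothing about stability. A site missing from a list can hold fragments.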
